A study of Homo sapiens with 66 samples.

Results

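The regions described here are chromatin sites that HIF-1α and HIF-2α both occupied in HKC8 cells, a line from human kidney proximal tubule. A site was taken where a HIF-1α peak was called in both ChIP-seq libraries of wild-type (WT) cells and the merged interval overlapped a site called in both HIF-2α libraries of the same cells. This gave 878 members. They were thus chosen by the peak calls of those 4 libraries, so HIF-1α and HIF-2α values from them describe the choice and are not findings. They were 878 of the 1105 HIF-1α sites and overlapped 878 of the 3802 HIF-2α sites, and the series as a whole had 9321 merged sites called in both libraries of any group. A promoter member had its centre within 1 kb of the start of a protein-coding transcript (103 members), and the other 775 were distal. HIF-1-only sites (142) were HIF-1α sites with no HIF-2α peak in either WT library, and HIF-2-only sites (2367) were the reverse.

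The study asked whether the isoforms take their sites independently of the severity and duration of hypoxia, of each other and of the cell type. WT HKC8 cells, HIF1aKO cells and HIF2aKO cells were kept in 0.5% oxygen for 16 h. Each knockout was a single CRISPR-Cas9 clone, so a property of the clone and loss of the isoform cannot be told apart, and peak lists do not measure whether the targeted gene was lost. In other HKC8 libraries unmodified cells spent 6 h in 3% oxygen, or 6 h, 16 h or 48 h in 0.5% oxygen. RCC4, a renal carcinoma line without functional VHL, was in normoxia, and HepG2, a hepatocellular carcinoma line, was in 0.5% oxygen for 16 h, so line and oxygen cannot be told apart for RCC4. Each of the 25 groups had 2 libraries, immunoprecipitated with an antibody to HIF-1α, HIF-2α or HIF-1β, and the 46 libraries outside the rule are those tested. The peak lists held 237 to 1790 peaks in the severity and duration libraries, 912 to 8268 in the WT and knockout libraries and 908 to 6843 in RCC4 and HepG2. They carry no read depth, so the absence of a call is not the absence of binding. The shortest list was the second HIF-2α library at 48 h.

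In HepG2 the 2 libraries labelled for an isoform differed widely from each other. At the HIF-1-only sites of HKC8, the libraries labelled HIF-1α were called at 3.52% and 71.1% of sites and those labelled HIF-2α at 69.0% and 7.75%. Each HepG2 result is therefore worded by its label, and results that pool conditions were repeated without HepG2.

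HIF is a heterodimer of an oxygen-regulated α subunit, HIF-1α or HIF-2α, and the constitutive HIF-1β. In oxygenated cells prolyl hydroxylation lets the VHL ubiquitin ligase capture the α subunits, and in hypoxia they escape destruction, pair with HIF-1β and bind hypoxia response elements (HREs). The HRE core is ACGTG or GCGTG, and both isoforms read it. HIF-1α is best known for driving the genes of glycolysis and HIF-2α for driving erythropoietin.

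Windows of 101 bases around the HRE core nearest to the centre are shown for members that were called in nearly every library and for members that had different fates in the knockouts, on the forward strand of GRCh37, with the core in capitals as ACGTG or GCGTG or as the complements CACGT or CACGC. The first set covers chr5:90576767-90576867 (in an exon, 102 kb from the nearest start, ARRDC3, ENSG00000113369.9_8), chr16:30076835-30076935 (promoter of ALDOA, ENSG00000149925.22_15), chr10:93392935-93393035 (promoter of PPP1R3C, ENSG00000119938.9_9), chr10:74020728-74020828 (12.98 kb from DDIT4, ENSG00000168209.4, intergenic), chr15:90709065-90709165 (in an annotated intron, 5.18 kb from a start of SEMA4B, ENSG00000185033.15_10) and chr3:5028560-5028660 (7.44 kb from BHLHE40, ENSG00000134107.5_6, intergenic).
ARRDC3: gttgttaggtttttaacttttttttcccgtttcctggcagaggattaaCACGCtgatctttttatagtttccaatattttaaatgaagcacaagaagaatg
ALDOA: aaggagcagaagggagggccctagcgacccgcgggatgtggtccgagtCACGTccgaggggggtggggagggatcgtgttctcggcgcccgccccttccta
PPP1R3C: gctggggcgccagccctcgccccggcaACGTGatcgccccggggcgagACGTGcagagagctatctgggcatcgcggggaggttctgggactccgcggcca
DDIT4: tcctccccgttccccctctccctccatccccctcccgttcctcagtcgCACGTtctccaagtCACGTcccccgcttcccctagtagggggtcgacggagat
SEMA4B: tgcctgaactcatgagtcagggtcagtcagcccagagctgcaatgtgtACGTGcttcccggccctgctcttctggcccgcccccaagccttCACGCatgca
BHLHE40: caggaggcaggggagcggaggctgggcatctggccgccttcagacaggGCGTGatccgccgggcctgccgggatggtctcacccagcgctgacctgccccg
The second set covers chr4:1075956-1076056 (in an annotated intron, 31.3 kb from a start of RNF212, ENSG00000178222.14_16) and chr12:46554362-46554462 (79.3 kb from SLC38A1, ENSG00000111371.16_9, intergenic), called for HIF-2α but not HIF-1α in the knockouts, chr3:177138291-177138391 (193 kb from TBL1XR1, ENSG00000177565.19_14, intergenic), called for neither, and chr10:7583342-7583442 (78.2 kb from ITIH5, ENSG00000123243.15_9, intergenic), called for HIF-1β in HIF1aKO but not in HIF2aKO cells.
RNF212: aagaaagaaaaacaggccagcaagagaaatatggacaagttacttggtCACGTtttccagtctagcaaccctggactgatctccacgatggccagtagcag
SLC38A1: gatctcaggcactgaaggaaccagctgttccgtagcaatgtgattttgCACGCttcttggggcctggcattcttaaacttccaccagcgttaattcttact
TBL1XR1: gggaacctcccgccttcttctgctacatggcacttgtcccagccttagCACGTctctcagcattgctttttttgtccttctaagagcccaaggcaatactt
ITIH5: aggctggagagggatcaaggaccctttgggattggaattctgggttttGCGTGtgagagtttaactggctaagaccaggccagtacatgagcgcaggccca
PPP1R3C, DDIT4 and SEMA4B each have 2 cores in the window and the other members shown have 1. Only members with a core within 100 bp of the centre were shown, so the presence of a core in each window follows from that choice.

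The members were mostly enhancer-like in position. Of 878, 103 (11.7%) lay within 1 kb of a start site, 186 (21.2%) at 1 to 10 kb, 427 (48.6%) at 10 to 100 kb and 162 (18.5%) beyond 100 kb. Within 1 kb lay 75 of 142 HIF-1-only sites (52.8%) and 90 of 2367 HIF-2-only sites, and these counts are descriptions, since the peaks that define the classes also place them. Centres fell in introns at 501 members (57.1%), between genes at 281 (32.0%), in other exon sequence at 50 (5.69%) and in UTRs at 46 (5.24%). Members lay within 100 kb of another member in 215 cases (24.5%). Of the genes nearest to a member within 100 kb, 67 had at least 2 and 15 at least 3, and NDRG1, a stress-response gene, and SMAD3, a TGF-β signal transducer, had 4 each.

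An HRE core lay within 100 bp of the centre at 595 members (67.8%, exact 95% binomial interval 64.6 to 70.9) and anywhere in the merged site at 848 (96.6%), with a median site width of 1192.5 bp. In windows of the same length 2 kb to either side, 21.8% held a core. The share near the centre was 72.8% at promoter and 67.1% at distal members, while 103 of 142 HIF-1-only sites (72.5%) and 1061 of 2367 HIF-2-only sites (44.8%) had one. At least 2 cores were present at 199 members (22.7%), at 35.9% of promoter and 20.9% of distal members, and at 3.42% of the flanking windows. Of the ACGTG cores, TACGTG was in 24.3% of the central windows, GACGTG in 17.5%, AACGTG in 11.05% and CACGTG in 8.88%, on either strand and counting a window under each hexamer it held, while each was in 2.05% to 2.28% of the flanking windows. GCGTG was less particular to the centre, at 25.3% against 14.9% of the flanking windows.

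The AP-1 motif (TGAGTCA, or TGACTCA on the other strand), bound by FOS and JUN proteins, was within 100 bp of the centre at 167 members (19.02%) and in 3.70% of the flanking windows. It was at 158 distal members (20.4%) and 9 promoter members (8.74%), at 17.1% of HIF-2-only sites and at 7.75% of HIF-1-only sites. The median GC content of the central 200 bp was 59.5% at promoter and 49.5% at distal members. A motif match is a description of the letters and not evidence of a bound factor.

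**Figure D1:**
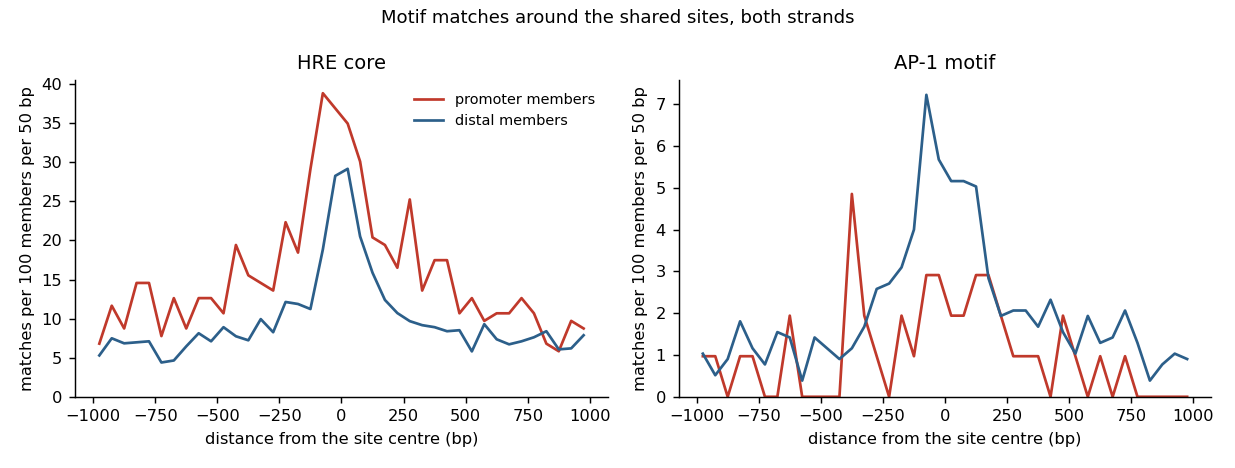
Matches of the HRE core (left) and the AP-1 motif (right) on either strand per 100 members in 50 bp bins, against distance from the site centre in bp, for 103 promoter members (red) and 775 distal members (blue). HRE cores peaked within 100 bp of the centre in both, at 29.2 per 100 distal members in the bin from 0 to 50 bp against 5.29 in the bin at the far left, and AP-1 matches peaked at distal members.

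Within WT cells, the peaks of the isoforms had nearly the same centre. The centres of the strongest HIF-1α and HIF-2α peaks in a member were a median of 78.0 bp apart in the first libraries and 84.0 bp in the second, against 70.8 bp between the 2 HIF-1α libraries and 66.0 bp between the 2 HIF-2α libraries. The score of a peak was read as the -10 log10 p of the peak caller, which the lists do not state. Its percentile is the share of peaks in the list that do not exceed it. Over 878 members the median percentile was 67.0 in the HIF-1α lists and 88.7 in the HIF-2α lists. The HIF-1α lists held 1910 and 1529 peaks and the HIF-2α lists 4523 and 6736, and a percentile depends on the length of its list, so the levels are not compared between isoforms. At promoter members the medians were 75.5 and 74.6, and at distal members 64.5 and 89.6. The difference HIF-1α minus HIF-2α had a median of 5.88 points at promoter members and -18.5 at distal members. These values come from the 4 lists that chose the members and carry no test.

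The difference was also computed in the knockouts, in libraries that the rule did not use. At the 368 members called in both HIF-1α libraries of HIF2aKO and both HIF-2α libraries of HIF1aKO, the difference had a median of -0.547 at 79 promoter members and -20.3 at 289 distal members. The correlation of the difference in the knockouts with that in WT cells was 0.754 (Spearman's rho, Pearson's r 0.704) across these sites, which are not replicates and share the mappability and sequence of the same region. It is a description, since the WT values come from the lists that chose the members. Within the promoter members rho was 0.635 and within the distal members 0.745. Between the first and second WT libraries rho was 0.675 over 878 members.

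**Figure D2:**
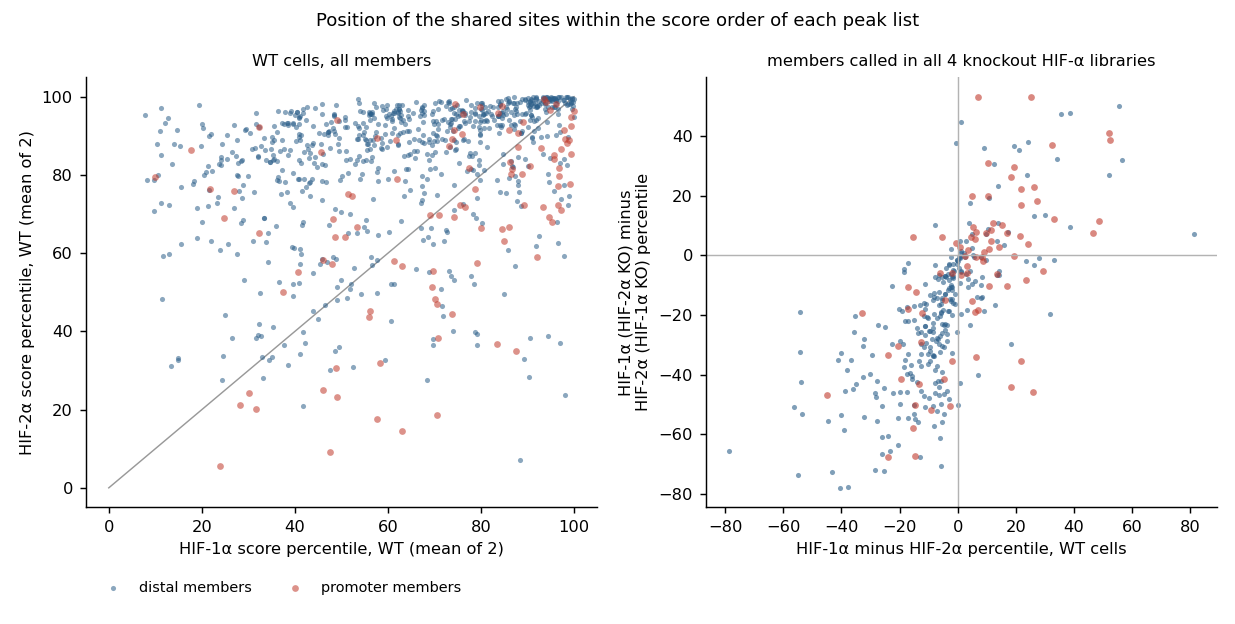
Left, percentile of the HIF-2α score against that of the HIF-1α score within the WT peak lists, each the mean of 2 libraries, for 878 members, with the line of equality. Right, the difference between the percentiles in the knockout lists against that in the WT lists for the 368 members called in all 4 knockout HIF-α libraries. Promoter members (red) lay nearer to HIF-1α than distal members (blue) in both panels.

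HIF-1β, the common partner, was called at nearly all members in WT cells, at 872 and 867 of 878 in the 2 libraries. Both libraries called 866 (98.6%), where 54.1% of all merged sites in the series were called in both. All 103 promoter members were among them. Both libraries also called 133 of 142 HIF-1-only sites (93.7%) and 1802 of 2367 HIF-2-only sites (76.1%). Only 5 members had no HIF-1β call.

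HIF-2α stayed at the members when HIF-1α was removed. In HIF1aKO cells the 2 HIF-2α libraries called 91.9% and 92.1% of members, and 793 (90.3%, exact 95% binomial interval 88.2 to 92.2) were called in both, against 45.5% of all merged sites. The share called in both was 93.2% of promoter and 89.9% of distal members, and 59.7% of the HIF-2-only sites. At 55 members neither library had a call.

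HIF-1α was called at fewer members in HIF2aKO cells than HIF-2α was in HIF1aKO cells. The rule fixed the call of both isoforms at every member in WT cells, so these shares do not measure a loss from WT. In HIF2aKO cells the HIF-1α libraries called 65.4% and 46.6% of members, and 387 (44.1%, interval 40.8 to 47.4) were called in both, against 6.99% of all merged sites. At 282 members (32.1%) neither library had a call. Promoter members kept HIF-1α most often, with 82 of 103 (79.6%) called in both libraries against 305 of 775 (39.4%) distal members. HIF-1-only sites lay between them, with 64.8% called in both, and 76.0% when only their promoter sites were counted. The share of members called was 36.0 percentage points lower for HIF-1α in HIF2aKO (56.0% ± 13.3, SD, n = 2) than for HIF-2α in HIF1aKO (92.0% ± 0.161, n = 2), and the libraries did not overlap. With 2 libraries against 2 an exact permutation test cannot go below p = 0.333, which is the p obtained. These HIF-1α lists were also the shortest of the knockout experiment, with 1268 and 912 peaks against 5219 and 6532 for HIF-2α. When every list was limited to the same number of strongest peaks the difference was -6.21 points.

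Calls in the knockouts are given by the strength of the WT peak, a value that the rule used. With the members ranked by WT percentile and cut into 3 groups of equal size, HIF-1α was called in both HIF2aKO libraries at 13.4% of the 292 lowest members, 34.1% of the 293 middle ones and 84.6% of the 293 highest. Promoter members were called more often in each group, at 53.8%, 76.7% and 95.7%, against 9.40%, 29.3% and 82.5% of distal members. For HIF-2α in HIF1aKO the same split by WT HIF-2α percentile gave 78.4%, 93.9% and 98.6%. These counts describe the sites and carry no test, and the HIF-1α lists of HIF2aKO cells were the shorter ones, as above.

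**Figure D3:**
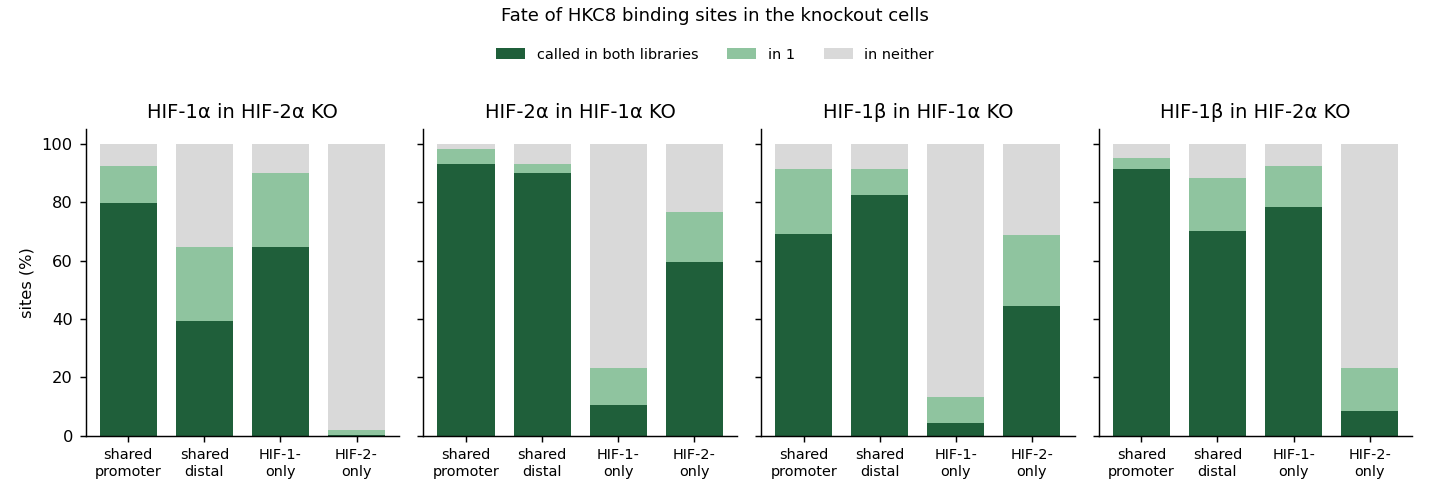
Share of sites (%) called in both libraries, in 1 or in neither, for HIF-1α in HIF-2α KO, HIF-2α in HIF-1α KO and HIF-1β in each, at shared promoter (103), shared distal (775), HIF-2-only (2367) and HIF-1-only (142) sites. HIF-1α was called in both libraries at 79.6% of shared promoter and 39.4% of shared distal sites, and HIF-2α at 93.2% and 89.9%.

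Taking both knockouts together, 368 members (41.9%) were called in both libraries for each isoform alone, against 4.7% of all merged sites. A further 238 (27.1%), of which 233 were distal, kept HIF-2α in both libraries and had no HIF-1α call, against 37% of all merged sites. The reverse was seen at 8 members (0.911%), all distal, against 1.66%. Since the HIF-1α lists were the shorter ones, 238 and 8 are not compared. Neither isoform was called in any of the 4 libraries at 32 members (3.64%, 31 of them distal), against 38.7%.

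By the order of their HIF-1β percentile in WT cells, the leading members that kept HIF-2α alone had RNF212 (a meiotic protein), TGM2 (transglutaminase 2) and SLC38A1 (an amino acid transporter) as the gene with the nearest start. At the RNF212 site the WT scores were 266 and 293 for HIF-1α and 1522 and 2825 for HIF-2α. In the knockouts HIF-2α scored 2110 and 2632, HIF-1α had no call, and HIF-1β in HIF2aKO cells was still called at 134 and 97.6, against 2157 and 3206 in WT cells. The leading members that kept HIF-1α alone lay near ADARB1 (an RNA-editing enzyme), MYL4 (a myosin light chain) and MRPS18A (a mitochondrial ribosomal protein). At the MYL4 site, 10.4 kb from the start and without an HRE core within 100 bp, HIF-1α scored 928 and 829 in WT cells and 926 and 433 in HIF2aKO cells. HIF-2α scored 218 and 320 in WT cells and had no call in HIF1aKO cells. The ADARB1 site scored 3100 in both WT HIF-2α libraries and had no HIF-2α and no HIF-1β call in HIF1aKO cells.

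In either knockout HIF-1β stayed at most members. In HIF1aKO cells its libraries called 82.8% and 89.4% of members, with 710 (80.9%) called in both against 31.2% of all merged sites. In HIF2aKO cells they called 85.8% and 76.1%, with 638 (72.7%) called in both against 15.9%. The mean share was 12.9 points lower than in WT cells in HIF1aKO and 18.1 points lower in HIF2aKO, and in neither case did the libraries overlap those of WT cells (exact permutation p = 0.333 each, the smallest that 2 against 2 allows). The members were chosen by HIF-α peaks of these WT cells, so the differences do not measure a loss from WT. The HIF-1β lists held 6192 and 8268 peaks in WT, 3375 and 5781 in HIF1aKO and 2549 and 2082 in HIF2aKO cells. With lists of equal length the differences were -14.4 points in HIF1aKO and -14.3 in HIF2aKO. By comparison, both HIF1aKO libraries called 6 of 142 HIF-1-only sites (4.23%) and both HIF2aKO libraries 111 (78.2%), and the shares of HIF-2-only sites were 44.3% and 8.37%. Both libraries of both knockouts called 554 members (63.1%), against 9.77% of all merged sites. HIF-1β was called in both HIF1aKO libraries and neither HIF2aKO library at 57 members (6.49%), 52 of them distal, against 15% of all merged sites. The reverse was seen at 29 (3.30%), near the 3.99% of all merged sites. Since the HIF1aKO lists were the longer ones, 57 and 29 are not compared.

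The mean difference between promoter and distal members had opposite signs in the 2 knockouts. HIF-1β in HIF1aKO cells was called at 69.9% and 90.3% of promoter members and 84.5% and 89.3% of distal members. In HIF2aKO cells it was called at 94.2% and 92.2% of promoter members and 84.6% and 73.9% of distal members. The promoter minus distal difference was 20.7 points lower in HIF1aKO (-6.81 ± 11.04, n = 2) than in HIF2aKO (13.9 ± 6.20, n = 2), with exact permutation p = 0.333, the smallest possible. The 2 HIF1aKO libraries differed, at -14.6 and 1.00, and their lists held 3375 and 5781 peaks. Of the 282 members with no HIF-1α call in HIF2aKO cells, 106 had a HIF-1β call in both libraries of those cells and 83 in neither. The HIF-1β lists of those cells held 2549 and 2082 peaks and the HIF-1α lists 1268 and 912. The 106 members are therefore not shown to lack HIF-1α.

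The carbonic anhydrase CA9, an established HIF-1 target, had a promoter member at chr9:35673193-35674563 (ENSG00000107159.14_7, centre in a UTR). HIF-1α scored 840 and 724 in WT cells and 905 and 957 in HIF2aKO cells. HIF-2α scored 251 and 922 in WT cells and 152 and 262 in HIF1aKO cells. HIF-1β scored 1612 and 2712 in WT cells and 1711 and 1358 in HIF2aKO cells, and in HIF1aKO cells it had no call in 1 library and 161 in the other. Scores depend on the depth of each library and are given side by side without a test. At SLC2A1, the GLUT1 glucose transporter (member in an annotated intron, 1.84 kb from its start), HIF-2α scored 848 and 1678 in WT cells and 1637 and 2083 in HIF1aKO cells, and HIF-1α scored 153 and 112 in WT cells and 61.5 in only 1 HIF2aKO library.

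In the mean over conditions, promoter members were called more often than distal members with each antibody, and the gap was widest for HIF-1α. The mean share called in HIF-1α libraries over 7 conditions was 50.3% of promoter and 21.9% of distal members, a difference of 28.4 points that was positive in 7 of 7 conditions (range 9.56 to 40.4, exact sign-flip permutation test over conditions, two-sided p = 0.0156, adjusted p = 0.0330 over the 19 tests made). In HIF-1β libraries the difference was 16.9 points over 9 conditions, positive in 8 of them (range -6.81 to 46.7, exact p = 0.0117, adjusted p = 0.0330). In HIF-2α libraries it was 10.3 points over 7 conditions, positive in 7 of 7 (range 0.742 to 44.8, exact p = 0.0156, adjusted p = 0.0330). The HIF-2α difference rested on RCC4 and HepG2, and was 1.97 points over the 5 HKC8 conditions alone (exact p = 0.0625, the smallest that 5 conditions allow) and 3.12 points with lists of equal length (exact p = 0.531). Without replicate 1 it was 7.36 points (exact p = 0.234) and without replicate 2 it was 13.3 (exact p = 0.0156). Without HepG2 the differences were 26.4 points for HIF-1α (exact p = 0.0313), 13.1 for HIF-1β (exact p = 0.0234) and 4.58 for HIF-2α (exact p = 0.0313).

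The gap between promoter and distal members was itself compared between isoforms in the 6 conditions in which both were immunoprecipitated. It was 27.5 points in HIF-1α and 11.4 points in HIF-2α libraries, a difference of 16.1 points over 24 libraries (exact stratified permutation test within conditions, two-sided p = 0.000814, adjusted p = 0.0155). The HIF-1α gap was the larger in 5 of 6 conditions, HepG2 being the exception, where the libraries labelled HIF-1α and HIF-2α had 40.4 and 44.8 points. Without HepG2 the difference was 20.2 points (exact p = 0.000257). It was 17.8 points without replicate 1 (exact p = 0.0313, the smallest possible) and 14.4 without replicate 2 (exact p = 0.125), so the call did not hold in the first replicates alone.

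**Figure D4:**
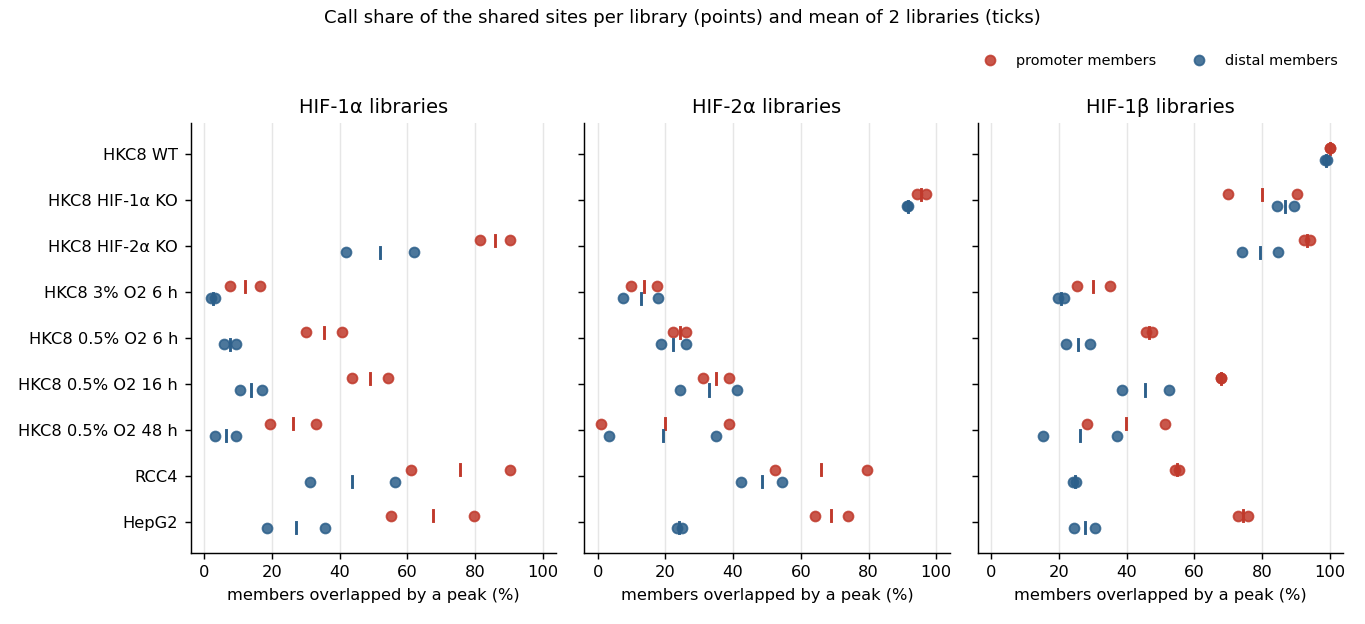
Share of promoter members (red, n = 103) and distal members (blue, n = 775) overlapped by a peak (%) in each library, with a tick at the mean of the 2 libraries, for HIF-1α, HIF-2α and HIF-1β libraries (panels) and the conditions (rows). In HIF-1α libraries promoter members lay to the right of distal members in each condition, while in HIF-2α libraries the points overlapped in the 4 HKC8 severity and duration conditions.

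Hypoxia of 3% oxygen gave fewer calls at the members than 0.5%. At 6 h, the mean share over the 3 antibodies was 12.8% in 3% and 20.5% in 0.5% oxygen, a difference of -7.71 points with the same direction for all 3 antibodies (exact stratified permutation test, two-sided p = 0.00926, the smallest it can give, adjusted p = 0.0330). HIF-1α libraries called 4.67% and 2.73% of members in 3% oxygen and 12.98% and 8.77% in 0.5% oxygen. HIF-2α libraries called 7.86% and 17.9% against 19.02% and 25.97%, and HIF-1β libraries 21.4% and 21.98% against 24.8% and 31.2%. In 3% oxygen both HIF-1α libraries called 18 members (2.05%), both HIF-2α libraries 54 (6.15%) and both HIF-1β libraries 138 (15.7%), where 0.44%, 1.17% and 4.14% of all merged sites were. In 0.5% oxygen at 6 h the corresponding counts were 69 (7.86%), 134 (15.3%) and 179 (20.4%), against 1.75%, 2.79% and 4.6%.

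More members were called at 16 h than at 6 h. The mean share was 33.1% at 16 h, 12.6 points above 6 h and higher for all 3 antibodies (exact stratified permutation test, p = 0.0185, adjusted p = 0.0352). At 16 h HIF-1α was called in both libraries at 110 members (12.5%), HIF-2α at 195 (22.2%) and HIF-1β at 336 (38.3%), against 2.8%, 3.58% and 8.78% of all merged sites. Of the HIF-1α calls, 42 of 103 promoter members (40.8%) and 68 of 775 distal members (8.77%) were called in both libraries, whereas for HIF-2α the shares were 26.2% and 21.7%. At 48 h the mean share was 18.6%, 1.90 points below 6 h (exact p = 0.769, adjusted p = 0.769), and the direction depended on the replicate, with -13.6 points without replicate 1 and 9.83 without replicate 2. At 48 h the second library called fewer members than the first with each antibody, and for HIF-2α 35.4% of members were called in 1 library and 3.08% in the other. Calls in both 48 h libraries were found at 40 members (4.56%) with the HIF-1α, 25 (2.85%) with the HIF-2α and 127 (14.5%) with the HIF-1β antibody, against 0.708%, 0.483% and 3.28% of all merged sites. The same oxygen and duration as in the WT cells that chose the members thus gave 18.1% ± 4.91 (HIF-1α) and 33.0% ± 11.1 (HIF-2α, SD, n = 2 each) in the severity and duration libraries, whose lists were shorter.

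RCC4 cells had calls of both isoforms at many members. HIF-1α was called in both libraries at 297 members (33.8%), HIF-2α at 367 (41.8%) and HIF-1β at 199 (22.7%), against 9.61%, 12.9% and 4.82% of all merged sites. Both isoforms were called in both libraries each at 243 members (27.7%), comprising 44.7% of promoter and 25.4% of distal members, and 300 members (34.2%) had no HIF-α call. Of all merged sites 4.94% and 61.9% did. At 10 members (1.14%) HIF-1α was called in both libraries and HIF-2α in neither, and at 14 (1.59%) it was the other way round, against 2.75% and 3.14% of all merged sites. The former included sites at CUX1 (a homeodomain factor), FHIP2A and the promoter of DDIT4, an inhibitor of mTOR signalling, and the latter sites at FHAD1, FGGY and ETS2 (a transcription factor).

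In HepG2 cells the libraries labelled HIF-1α were both called at 197 members (22.4%), those labelled HIF-2α at 211 (24.03%) and HIF-1β at 250 (28.5%). Of all merged sites, 12.9%, 12.4% and 23.1% were called. The merged sites include those that the HepG2 libraries supplied, so they are not a background independent of HepG2. Among the other HKC8 sites, both HIF-1β libraries of HepG2 called 1.77% of HIF-2-only and 68.3% of HIF-1-only sites. At the members the calls favoured promoters. HIF-1β was called in both libraries at 75 of 103 promoter members (72.8%) and 175 of 775 distal members (22.6%).

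Members were set against the sites of 1 isoform in the libraries outside the rule. In HIF-2α libraries, 37.1% of members and 15.3% of HIF-2-only sites were called, a difference of 21.8 points that was positive in 7 of 7 conditions (exact sign-flip test, p = 0.0156, adjusted p = 0.0330), and it was 20.8 points among distal sites alone. In HIF-1β libraries the difference from HIF-2-only sites was 30.9 points, positive in 9 of 9 conditions (exact p = 0.00391, adjusted p = 0.0330). The largest, 65.1 points, was in HIF2aKO cells, where the targeted isoform was the only one called at HIF-2-only sites in WT cells. The WT HIF-1β libraries came from the cells whose HIF-α peaks set the classes. In these 2 conditions the sign is not independent of the class definition, and the p counts both. The classes were set by WT peak calls and were not matched for WT score. Members had median percentiles of 87.4 and 90.8 in the WT HIF-2α lists. Calls of HIF-2α in both HIF1aKO libraries rose with WT percentile, from 78.4% of the lowest group of members to 98.6% of the highest. Whether WT peak strength accounts for the differences between classes was not tested. In HIF-1α libraries members were called less often than HIF-1-only sites, at 25.2% against 34.7%, 9.48 points lower in 7 of 7 conditions (exact p = 0.0156, adjusted p = 0.0330), and 7.48 points lower without replicate 2 (exact p = 0.203). The class of HIF-1-only sites held more promoters, and the direction turned at promoters, where members were called 6.75 points more often (exact p = 0.0469), while at distal sites the difference was -2.94 points (exact p = 0.281). HIF-1β at members and HIF-1-only sites differed by 8.55 points with a range over conditions of -37.0 to 77.3 (exact p = 0.504, adjusted p = 0.563), and by 14.3 points without HepG2 (exact p = 0.0391). The highest value was that of HIF1aKO cells, with 86.1% of members and 8.80% of HIF-1-only sites called. There the targeted isoform was the only one called at HIF-1-only sites in WT cells, so the class definition bears on that value. Both averages include it, and none without it was computed. The other differences without HepG2 were 21.1 and 31.1 points from HIF-2-only sites in HIF-2α and HIF-1β libraries and -10.1 points from HIF-1-only sites in HIF-1α libraries.

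Members with an HRE core within 100 bp of the centre were called slightly more often for HIF-1α than those without, at 27.0% against 21.6%, 5.42 points in 7 of 7 conditions (exact sign-flip test, p = 0.0156, adjusted p = 0.0330). In HIF-1β libraries the difference was 2.73 points in 7 of 9 conditions (exact p = 0.0234, adjusted p = 0.0405) and in HIF-2α libraries 1.04 points in 4 of 7 (exact p = 0.500, adjusted p = 0.563). With a core within 50 bp the differences were 0.791 points for HIF-1α (exact p = 0.672) and -2.37 for HIF-1β, so they depended on the window. Without HepG2 they were 5.07 points for HIF-1α and 2.29 for HIF-1β with the 100 bp window.

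Each member was called in a median of 16 of the 46 libraries outside the rule, with a range of 0 to 46. Promoter members had a median of 26 (interquartile range 16.5 to 33.5) and distal members 15 (10 to 22). At least 40 libraries called 28 members, 11 of them promoters, and at most 10 libraries called 238, of which 229 were distal.

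**Figure D5:**
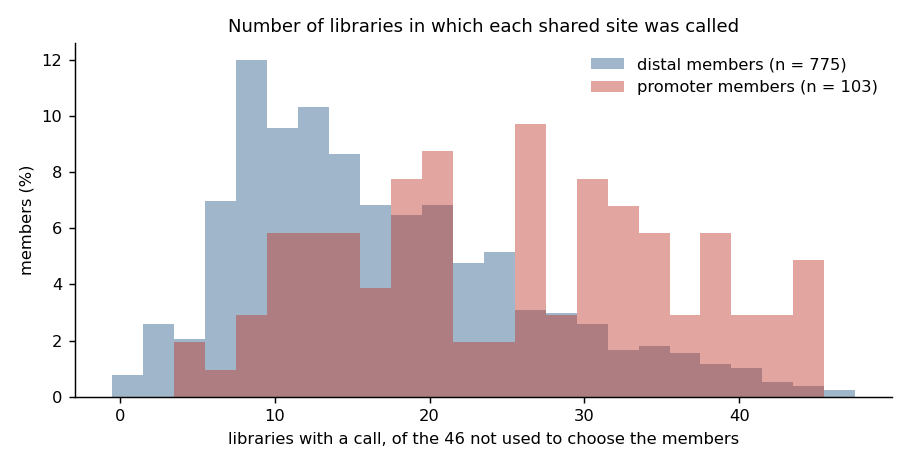
Distribution of the number of libraries, of the 46 not used to choose the members, in which a member was called, as a share of the 103 promoter members (red) and 775 distal members (blue). The medians were 26 and 15 libraries.

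The 10 members called in most libraries were 5 promoter and 5 distal sites. In all 46 libraries a peak was called at 2 of them, both distal, 73.6 kb from NDRG1 and 102 kb from ARRDC3, an arrestin-domain protein. The promoters of ALDOA (aldolase A), LDHA (lactate dehydrogenase A) and PPP1R3C (a glycogen-targeting phosphatase subunit) were called in 45. The sites 12.98 kb from DDIT4, in SEMA4B (a semaphorin), 7.44 kb from BHLHE40 (a hypoxia-induced transcriptional repressor) and the promoters of GAPDH and PLOD2 (a collagen lysyl hydroxylase) were called in 44. At the DDIT4 site the WT scores were 1349 and 1416 for HIF-1α and 1447 and 2408 for HIF-2α, and in the knockouts they were 1082 and 1548 for HIF-1α and 3100 in both libraries for HIF-2α. The ARRDC3 site had 339 and 990 for HIF-1α and 3100 in both HIF-2α libraries of WT cells, and 239 and 256 for HIF-1α in HIF2aKO cells.

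Members lay near many HIF target genes. Over 12 gene lists, 43 of 99 genes (43.4%) had a start site that was the nearest protein-coding one to a member within 100 kb, where 3.19% of all 19794 protein-coding genes did. The lists were assembled from known HIF targets, so the excess is no independent result. Of 19 genes of glucose uptake and glycolysis, 11 had 14 members. The sites at ALDOA (45 libraries), GAPDH (44), PKM (42, pyruvate kinase) and GPI (42, glucose-6-phosphate isomerase) were called in most libraries. At the promoter of GPI HIF-1α scored 1462 and 1158 and HIF-2α 837 and 164 in WT cells, and 8 HRE cores lay within 100 bp of the centre, the most of any member. Of 5 genes of pyruvate and lactate fate LDHA had 1 member (45 libraries), and of 7 of glycogen metabolism PPP1R3C (45) and GBE1 (31, the branching enzyme) had 1 each.

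Scores at 4 members of the glycolysis and lactate lists are given as a description, since the WT scores are those of the libraries that chose the members and the lists of the isoforms differ in length. At the promoter of PGK1 (phosphoglycerate kinase 1) HIF-1α scored 745 and 713 and HIF-2α 260 and 269 in WT cells. HIF-1α then scored 951 and 1190 in HIF2aKO cells and HIF-2α 148 and 328 in HIF1aKO cells, where HIF-1β was called in 1 of 2 libraries. At the member 1.06 kb from PFKFB3, which makes an activator of glycolysis, HIF-1α scored 356 and 450 and HIF-2α 60.3 and 99.4 in WT cells, and HIF-2α was called in 1 HIF1aKO library, at 57.5. At the LDHA promoter HIF-2α scored 684 and 355 and HIF-1α 154 and 197 in WT cells, and HIF-2α scored 2951 and 3100 in HIF1aKO cells. HIF-1α scored 207 and 992 there in HIF2aKO cells, so the 2 libraries differed widely. GAPDH had 1606 and 1292 for HIF-1α and 226 and 890 for HIF-2α in WT cells, and kept both, at 1863 and 1038 for HIF-1α in HIF2aKO and 1391 and 1464 for HIF-2α in HIF1aKO cells.

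Among the 10 genes of oxygen sensing and HIF feedback, EGLN3, a HIF prolyl hydroxylase, had 2 members in annotated introns, 12.3 and 84.7 kb from the nearest start (40 and 29 libraries), and CITED2, an inhibitor of HIF, had 1 (21). The EGLN3 site nearer to the start scored 2479 and 1658 for HIF-1α and 660 and 1197 for HIF-2α in WT cells. Of 4 genes of acid-base balance, CA9 (32 libraries), CA12 (21 and 14) and SLC4A4 (15) had members. Of 10 vascular and secreted factors 6 did, among them ADM (38, adrenomedullin) and STC2 (37, stanniocalcin 2).

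Of 5 genes of autophagy and mTOR stress response, DDIT4 had 3 members (44, 30 and 28 libraries) and BNIP3L, a mitophagy receptor, had 1 (25). The promoter of DDIT4 was unlike the site 12.98 kb away, with 12 of 14 HIF-1α and 4 of 14 HIF-2α libraries against 14 and 12. Of 8 histone demethylases KDM4B (43), KDM3A (42) and KDM2B (27) had 1 promoter member each. Of 8 genes of collagen hydroxylation and cross-linking, PLOD2 (44), LOX (22) and LOXL2 (39, 20 and 11) had members. Of 6 genes of lipid storage and uptake INSIG2 (26, a regulator of sterol synthesis) and PLIN2 (24 and 21, a lipid droplet coat protein) did, and of 10 of growth control 6 did, led by NDRG1 (46), BHLHE40 (44 and 41) and ZNF395 (33). Of 7 genes of iron handling CP (ceruloplasmin) and HMOX1 (haem oxygenase 1) had 1 member each, both in 25 libraries.

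At the 3 members just inside the rule the lowest of the 4 WT scores was a HIF-1α score. That score was 50.05 at the sites near PTGR2 and CENPJ and 50.1 at that near PHACTR1, while their HIF-2α scores were 623 and 1570, 109 and 200, and 121 and 428. All 85 HIF-1α sites that fell just outside had a HIF-2α call in 1 WT library. The strongest by mean HIF-1α score were the promoters of CBX5 (HIF-1α 1220 and 843, HIF-2α 54.9 in 1 library), ANKZF1 (794 and 333, HIF-2α 62.4) and ENO1 (504 and 566, HIF-2α 777).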

How the data were processed

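ChIP-seq for HIF-1α, HIF-2α and HIF-1β was carried out in human cell lines. The authors trimmed reads with Trim Galore 0.3.3, aligned them with BWA 0.7.5a-r405 to GRCh37, removed reads of mapping quality below 15 with SAMtools 0.1.19, removed blacklisted regions with bedtools 2.17.0 and duplicates with Picard 1.106, and called peaks in each library against input with MACS (version not given in the sources used here). Their methods also describe T-PIC as a further caller, with peaks kept where both callers found them and the count exceeded random background, and whether the deposited lists carry that filter is not given in the sources used here. The deposited peak lists give a score per peak, which the authors' caller made and which was read as -10 log10 p from its lowest value of 50. Input samples had no peak list and were not used.

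Peaks on chromosomes 1 to 22, X and Y were kept (131131 of 131425). Peaks of 2 replicates that overlapped by at least 1 bp were merged into sites. The centre of a member was the mean of the centres of its best peak in each WT HIF-α list. Start sites came from GENCODE 44 mapped to GRCh37, and sequence from GRCh37. Statistics used Python 3.11.15, NumPy 2.4.6, pandas 2.3.3 and SciPy 1.17.1, and the tests were run on simulated data first. Libraries or conditions, never sites, were the units of every test, with Benjamini-Hochberg adjustment over 19 tests. Nothing states that the 2 replicates of a group came from separate cultures. The p-values of tests over libraries therefore measure the spread between these libraries. In the sign-flip tests the 2 libraries of a condition were averaged first. Their p-values measure how consistent a difference was over conditions, most of which were of HKC8 cells. Intervals on shares of sites cover counting error only.

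Members, gene lists and tests were chosen with earlier results of these data known. Named members were the 10 called in most libraries, the 3 of highest WT HIF-1β percentile in each class of knockout or cell-line fate, those nearest to a listed gene, and the 3 just inside and just outside the rule. Among the listed genes, those whose scores are given were picked after the scores had been seen. Alternatives were score, list length, overlap, promoter distance, motif window, annotation, replicates, the replicate block and cell lines left out.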

Additional observations from a re-analysis of the deposited data

Results flagged for a closer look

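These are differences between groups in the gap between promoter and distal members, each with a test of the difference itself. The gap was 16.1 percentage points wider in HIF-1α than in HIF-2α libraries (27.5 against 11.4 points, 24 libraries, exact stratified permutation p = 0.000814, adjusted p = 0.0155), and 14.4 points wider without replicate 2 (exact p = 0.125). The gap was also compared between the 2 libraries of RCC4 or HepG2 and the 8 HKC8 severity and duration libraries, in 6 exact permutation tests that were added after seeing the data and whose smallest possible p is 0.0222.

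In HIF-2α libraries the gap was 16.2 points wider in RCC4 (17.6 against 1.44, exact p = 0.0222, adjusted p = 0.0444), and 0.334 points wider with lists of equal length (exact p = 0.800). It was 43.4 points wider in the HepG2 libraries labelled HIF-2α (44.8 against 1.44, exact p = 0.0222, adjusted p = 0.0444), and 23.7 points wider with lists of equal length (exact p = 0.0222). In HIF-1β libraries it was 13.5 points wider in RCC4 (30.1 against 16.6, exact p = 0.0444, adjusted p = 0.0667) and 30.1 points wider in HepG2 (46.7 against 16.6, exact p = 0.0222, adjusted p = 0.0444). In HIF-1α libraries the difference was 8.83 points for RCC4 (exact p = 0.289, adjusted p = 0.289) and 17.4 for HepG2 (exact p = 0.0889, adjusted p = 0.107). Except for the RCC4 HIF-1β libraries, the lists of these lines were longer than those of the HKC8 severity and duration libraries.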

How the results depend on the processing

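Of 238 alternative values, 188 kept their direction and their side of the threshold, 34 no longer passed it, 10 reversed, 5 came to pass it and 1 moved. In 60 of the 238, 39 of them among the 188, too few samples entered for any p to pass. Values are differences in percentage points unless stated. Requiring a score of at least 100 left 470 members. It gave 9.09 for promoter minus distal members in HIF-2α libraries, 1.06 for members with against without an HRE core in HIF-1β libraries, 23.9 (HepG2, HIF-1α) and 14.9 (RCC4, HIF-1β) for the wider promoter gap of those lines. With lists of equal length these became 3.12 (HIF-2α promoter gap), -7.31 (members against HIF-1-only sites, HIF-1α), -0.235 and -0.690 (HRE core, HIF-2α and HIF-1β), -5.47 (HIF-1β, HIF1aKO against HIF2aKO), and 0.334 (HIF-2α) and 11.6 (HIF-1β) for RCC4. Without HepG2 and RCC4, where 5 conditions allow no p below 0.0625 for the HIF-α antibodies, the values were 25.3 and 1.97 (promoter gap, HIF-1α and HIF-2α), -9.07 (HIF-1-only, HIF-1α), 18.7 (HIF-2-only, HIF-2α), 16.2 (HIF-1-only, HIF-1β), and for the HRE core 4.36 (HIF-1α), -0.421 (HIF-2α) and 1.91 (HIF-1β). Without HepG2 alone HIF-1β gave 14.3 against HIF-1-only sites, a value that, like the 16.2 above, includes HIF1aKO cells. With all conditions kept, the HIF-1β difference from HIF-1-only sites was 15.5 among distal sites. For HIF-1α it was -2.94 among distal and 6.75 among promoter sites, also with all conditions. A promoter limit of 5 kb gave 4.88 for HIF-2α, and start sites of all transcripts 10.6 for RCC4 HIF-1β. With the HRE core within 50 bp the differences were 0.791 (HIF-1α libraries), -2.71 (HIF-2α libraries) and -2.37 (HIF-1β libraries), with a core in the whole site 10.03 for HIF-2α, and at members with HIF-1β in both WT libraries -0.205 (HIF-2α) and 1.03 (HIF-1β). The cause of these changes was not tested.

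Leaving out either replicate gave 14.4 to 17.8 for the difference in promoter gap between isoforms (exact p = 0.125 without replicate 2), 7.36 to 13.3 for the HIF-2α promoter gap, -11.5 to -7.48 against HIF-1-only sites, 2.16 to 3.36 for the HRE core in HIF-1β libraries, -7.78 to -7.63 for 3% against 0.5% oxygen, 10.7 to 14.6 for 16 h against 6 h, -13.6 to 9.83 for 48 h against 6 h, -2.96 to 13.3 for HIF-1β between the knockouts, and 11.3 to 21.1 and 41.9 to 44.8 (HIF-2α, RCC4 and HepG2) and 9.498 to 17.5 and 24.5 to 35.6 (HIF-1β, RCC4 and HepG2) for the lines. With the replicate block the isoform difference stayed at 16.1 (exact p = 0.00342), and the block changed no call. Deviations of same-numbered libraries correlated between -0.196 and 0.337, above 0.1 in 6 of 17 pairs, so the numbers were not taken to pair the samples. With the HepG2 numbers crossed the exact p was 0.00244. Lists of peaks carry no depth, so a missing call bounds nothing.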
